A study of Mus musculus with 46 samples.

Results

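Acylcarnitines were followed in kidney, liver and serum of wild-type C57BL/6 mice, as the tables of an untargeted mass spectrometry survey report them. Members were taken by name: every compound whose annotated name contains "carnitine" or begins with "ACar", the shorthand for an acylcarnitine known by its numbers of acyl carbons and double bonds. This gave 240 of 5760 named entries over 6 tables, under 84 names and 64 acyl compositions. Of them 231 carry an acyl chain, and the other entries are free carnitine and names without a chain. The arms were castrated males, sham females and sham males, with surgery at the age of 8 weeks and tissue collected at 12 weeks or 18 months of age on a standard diet. RNA libraries numbered 46: castrated males had 6 per tissue at 12 weeks and 5 at 18 months, and each sham group had 3. The series set out to ask how castration relates to healthy ageing. Per the labels, RNA came from kidney and liver, and metabolites also from serum, which has no RNA library.

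Carnitine is made from methylated lysine, chiefly in liver and kidney, and is taken up by cells through dedicated transporters. Carnitine acyltransferases join it to the acyl groups of acyl-CoA so that long-chain fatty acids can cross into mitochondria for beta-oxidation, and they return surplus acyl groups to the cytosol and the blood. Long chains come from fatty acids entering oxidation, medium chains from fatty acids partly shortened, and short branched or odd chains mostly from amino acids. The liver and the tubules of the kidney both rely on fatty acid oxidation.

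Each table holds 1 mean relative abundance per arm and compound, so no spread, standard error or p-value can be given and the sources used here do not give the number of animals behind a mean. All metabolite differences are therefore descriptions. The castration ratio is the log2 of the castrated male mean over the sham male mean, and the sex ratio is the log2 of the sham female mean over the sham male mean. A member was counted as higher or lower when its ratio passed 1.5-fold, and each count stands beside the share of all compounds of the same table past that limit. Both ratios share the sham male mean. The weakest signals of a table are the members whose highest mean lies under the 25th percentile of that table. Levels cannot be compared between tables, nor between compounds, because the signal per molecule is unknown. Short chains have 2 to 5 carbons, medium chains 6 to 12 and long chains 13 or more. The tables held 52 members of 723 compounds in kidney, 38 of 737 in liver and 34 of 1493 in serum at 12 weeks, and 56 of 985, 24 of 954 and 36 of 868 at 18 months. The arm labels of the metabolite tables were not checked against an independent marker. In the RNA means, whose unit is FPKM at 12 weeks and is not stated at 18 months, the 5 kidney markers (Umod, Nphs1, Lrp2, Slc34a1, Aqp2) were high in every kidney group, with Slc34a1 at 1458 in castrated males, 1199 in sham females and 1533 in sham males FPKM at 12 weeks, and the 5 liver markers (Apoa1, Ttr, Hpx, Tat, Cps1) were high in every liver group.

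In serum at 18 months the acylcarnitines of castrated males stood above those of sham males, and the unsaturated ones stood highest. Of 36 members, 15 were higher and 3 lower, beside 16.6% and 13.4% of all 868 compounds. Without the weakest signals 11 were higher and 1 lower. The median castration ratio was 0.46 over members and 0.00 over all compounds. Among chains with 1 double bond 7 of 10 were higher (median 0.86), among chains with 2 or more double bonds 6 of 11 (median 1.05), and among saturated chains 2 of 14 (median 0.24).

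The widest difference was in ACar(18:2), the mass of linoleoylcarnitine, an ester of the main dietary omega-6 fatty acid. It averaged 1.24 in castrated males, 0.761 in sham females and 0.319 in sham males, a castration ratio of 1.96. ACar(12:3), among the weakest signals of the table, had a castration ratio of 1.82. It averaged 0.0221 in castrated males, 0.0106 in sham females and 0.00626 in sham males. In both the sham females lay between the other arms. ACar(11:1) averaged 0.103 in castrated males, 0.0753 in sham females and 0.0389 in sham males. ACar(20:4), the mass of arachidonoylcarnitine, averaged 0.325 in castrated males, 0.211 in sham females and 0.127 in sham males. Sham females were again in the middle for both. Vaccenyl carnitine, annotated as an isomer of the oleoyl ester, averaged 0.313 in castrated males, 0.269 in sham females and 0.136 in sham males. ACar(16:3) averaged 0.189 in castrated males, 0.149 in sham females and 0.0766 in sham males. These 6 were higher than sham males in castrated males and sham females alike.

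The other members that were higher in castrated males had sham females within 1.5-fold of sham males. ACar(16:1) averaged 0.00676 in castrated males, 0.00197 in sham females and 0.00273 in sham males. ACar(16:2) averaged 0.327 in castrated males, 0.130 in sham females and 0.146 in sham males. ACar(14:1) averaged 0.210 in castrated males, 0.0927 in sham females and 0.102 in sham males. In all 3 the female mean was the lowest of the arms. ACar(14:2) averaged 0.296 in castrated males, 0.146 in sham females and 0.143 in sham males. ACar(12:1) averaged 0.142 in castrated males, 0.0766 in sham females and 0.0740 in sham males. Both had about equal means in the sham arms. ACar(10:1) averaged 0.112 in castrated males, 0.0750 in sham females and 0.0735 in sham males. ACar(8:1) averaged 0.0815 in castrated males, 0.0507 in sham females and 0.0476 in sham males. For these 4 the sex ratio was between 0.03 and 0.09. Among saturated members, ACar(14:0) averaged 0.0294 in castrated males, 0.0201 in sham females and 0.0145 in sham males. The entry named tetradecanoylcarnitine, of the same composition, averaged 1.001 in castrated males, 0.537 in sham females and 0.793 in sham males. The hexadecanedioic acid ester, a chain with an acid group at both ends as omega-oxidation makes, averaged 0.0319 in castrated males, 0.0215 in sham females and 0.0160 in sham males. ACar(16:1), ACar(14:0) and this ester were among the weakest signals of the table.

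The 3 serum members that were lower in castrated males were lower still in sham females. Nervonyl carnitine averaged 0.417 in castrated males, 0.219 in sham females and 0.724 in sham males. ACar(13:0) averaged 0.0234 in castrated males, 0.0128 in sham females and 0.0386 in sham males. ACar(15:2) averaged 0.0172 in castrated males, 0.00959 in sham females and 0.0297 in sham males. Their castration ratios were -0.80, -0.72 and -0.79, and ACar(13:0) and ACar(15:2) were among the weakest signals of the table.

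**Figure D1:**
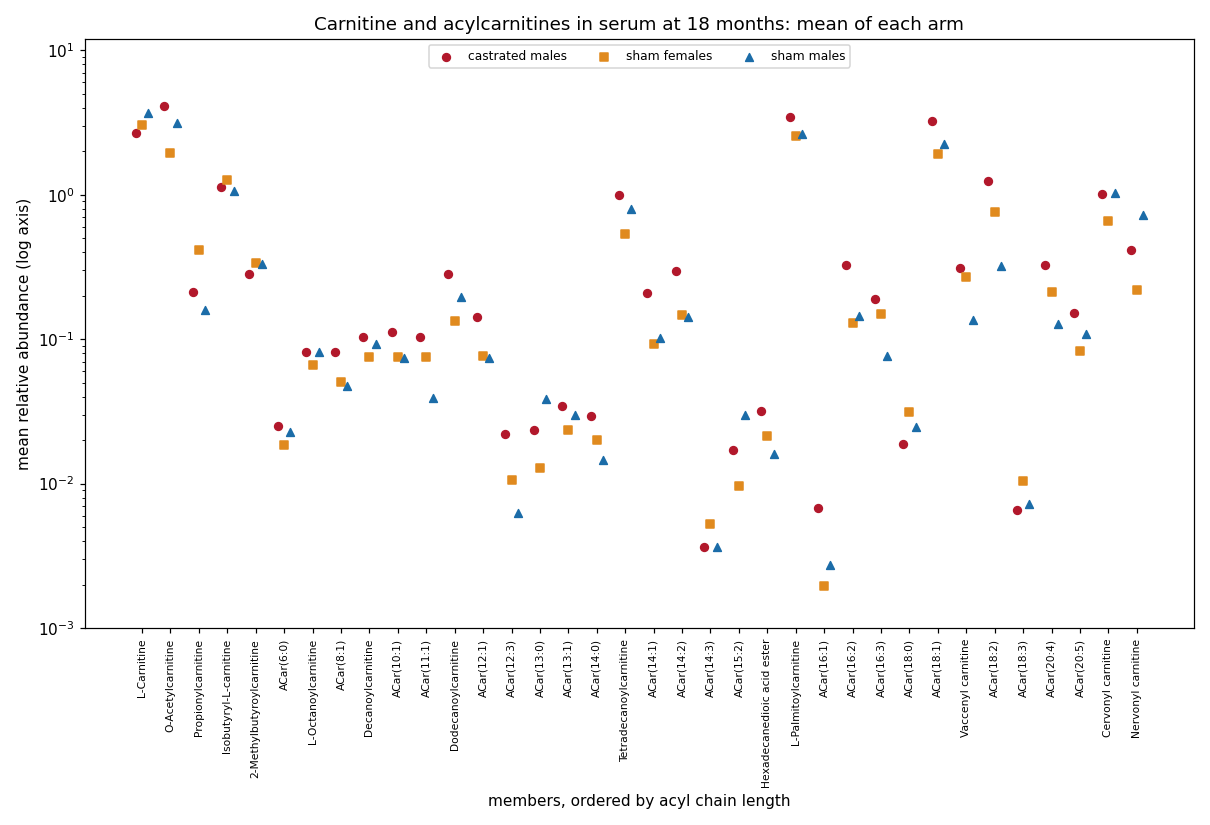
Mean relative abundance of the 36 carnitine members in serum at 18 months, on a log axis, for castrated males, sham females and sham males; each point is the single mean of an arm and there are no error bars because no spread was given. Castrated males lie above both other arms for most unsaturated chains, with ACar(18:2) at 1.24 against 0.319 in sham males, while free carnitine, at the left, is lowest in castrated males.

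The step from no double bond to 1 double bond at equal chain length was accompanied by a higher castration ratio at all 7 chain lengths that serum at 18 months offered. The median difference was 0.79 in log2 units, with entries of one composition averaged. At 18 carbons the ratio was -0.39 for the saturated chain and 0.87 for the chain with 1 double bond. At 16 carbons it was 0.39 for the saturated chain and 1.31 with 1 double bond, and at 8 carbons -0.01 for the saturated chain and 0.77 with 1 double bond. The entry with 1 double bond at 16 carbons was among the weakest signals of the table. The same step went with a higher sex ratio at 5 of 7 lengths. In the other tables it was above the saturated chain at 4 of 9 lengths in kidney, 1 of 5 in liver and 2 of 4 in serum at 12 weeks, and at 5 of 7 in kidney and 1 of 2 in liver at 18 months. In total 34 pairs were set side by side for castration, with no test of any, and the pattern by unsaturation was described after the values were seen.

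Free carnitine ran the other way in this serum, averaging 2.69 in castrated males, 3.06 in sham females and 3.65 in sham males, a castration ratio of -0.44 that did not pass the limit. Relative to it, the median castration ratio was 0.68 for 4 short chains, 1.05 for 9 medium chains and 0.95 for 22 long chains, and 9 of 9 medium and 19 of 22 long members lay above free carnitine. Acetylcarnitine, the transport form of the end product of beta-oxidation, averaged 4.10 in castrated males, 1.94 in sham females and 3.14 in sham males. Taken relative to acetylcarnitine in place of free carnitine, the median was -0.30 for 3 short chains, the opposite side from that against free carnitine, and 0.23 for medium and 0.13 for long chains.

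In 18-month serum the ketone body (R)-3-hydroxybutyric acid, no carnitine ester but the other export product of fatty acid oxidation in liver, averaged 5.28 in castrated males, 1.15 in sham females and 1.09 in sham males, a castration ratio of 2.28. Free linoleic acid averaged 0.142 in castrated males, 0.193 in sham females and 0.157 in sham males in the same serum. Free linoleic acid thus had its highest mean in sham females and ACar(18:2) in castrated males. Other free acids of this serum lay on both sides. Their castration ratios were 0.80 for myristoleic, 0.53 for oleic, 0.29 for alpha-linolenic, 0.18 for arachidonic and 0.02 for palmitic acid. For docosahexaenoic acid the ratio was -0.16 and for palmitoleic acid -0.28.

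In serum at 12 weeks castrated males and sham males differed little in most members. Of 34 members 2 were higher and 3 lower, beside 16.5% and 13% of all 1493 compounds, and the median castration ratio was -0.02. The count without the weakest signals was 2 higher and 1 lower. ACar(20:4) averaged 6.56e-06 in castrated males, 4.77e-06 in sham females and 2.25e-06 in sham males, a castration ratio of 1.54 and the widest of this table. ACar(16:3) averaged 3.60e-06 in castrated males, 2.56e-06 in sham females and 2.33e-06 in sham males. These 2 compositions were also higher at 18 months. The 3 that were lower were highly unsaturated or odd. ACar(14:3) averaged 9.72e-07 in castrated males, 1.22e-06 in sham females and 1.71e-06 in sham males. ACar(17:2) averaged 1.42e-07 in castrated males, 2.13e-07 in sham females and 2.42e-07 in sham males. ACar(12:3) averaged 1.15e-07 in castrated males, 1.37e-07 in sham females and 1.92e-07 in sham males. ACar(12:3) was thus lower at 12 weeks and higher at 18 months.

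**Figure D2:**
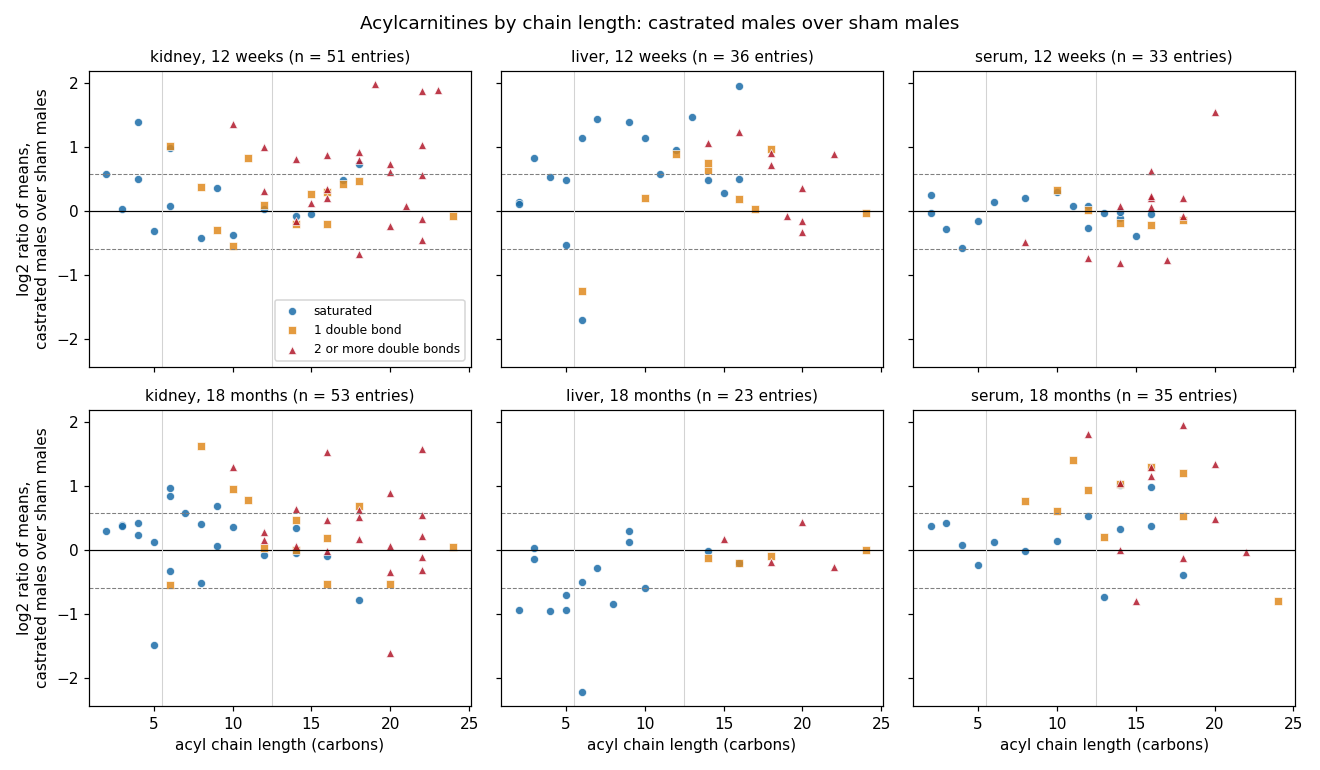
Log2 ratio of the castrated male over the sham male mean (y axis) against acyl chain length in carbons (x axis) for each entry in kidney, liver and serum at 12 weeks (top) and 18 months (bottom); colours and shapes give unsaturation, dashed lines the 1.5-fold limit and vertical lines the chain classes. In serum the points lie around 0 at 12 weeks and mostly above it at 18 months (median 0.46 over all 36 members), in liver mostly above 0 at 12 weeks (29 of 36 chains) and mostly below it for short and medium chains at 18 months (medians -0.82 and -0.50).

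In kidney at 12 weeks 17 of 52 members were higher and 1 was lower in castrated males, beside 13.7% and 10.4% of 723 compounds, with a median castration ratio of 0.34 against 0.03 over all compounds. The polyunsaturated chains carried most of it: 12 of 23 with 2 or more double bonds were higher (median 0.61), against 2 of 13 with 1 double bond (median 0.27) and 3 of 15 saturated (median 0.08). ACar(19:2) averaged 0.0357 in castrated males, 0.0314 in sham females and 0.00904 in sham males, a castration ratio of 1.98. It was among the weakest signals of the table, and without those signals 13 members were higher and 1 lower. ACar(23:4) averaged 0.565 in castrated males, 0.238 in sham females and 0.152 in sham males. ACar(22:4), the mass of the adrenic acid ester, averaged 3.07 in castrated males, 2.67 in sham females and 0.836 in sham males, a ratio of 1.88. In all 3 the sham females were also above the sham males.

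Shorter polyunsaturated chains did the same in both arms. ACar(10:2) averaged 0.215 in castrated males, 0.185 in sham females and 0.0839 in sham males. ACar(12:3) averaged 0.370 in castrated males, 0.293 in sham females and 0.185 in sham males. ACar(14:3) averaged 0.471 in castrated males, 0.525 in sham females and 0.268 in sham males. Sham females had the highest mean for ACar(14:3) and castrated males for the other pair. ACar(16:4) averaged 0.318 in castrated males, 0.265 in sham females and 0.173 in sham males. ACar(18:2) averaged 5.69 in castrated males, 6.92 in sham females and 3.27 in sham males. ACar(18:3), the mass of linolenoylcarnitine, averaged 1.68 in castrated males, 2.43 in sham females and 0.889 in sham males. In these 6 castrated males and sham females both passed the limit over sham males. ACar(20:4) averaged 1.68 in castrated males, 1.71 in sham females and 1.10 in sham males, the member just inside the limit. For the next 2 chains sham females lay within 1.5-fold of sham males. ACar(20:2) averaged 4.92 in castrated males, 2.93 in sham females and 2.95 in sham males. ACar(22:3) averaged 1.28 in castrated males, 0.689 in sham females and 0.625 in sham males. Stearidonyl carnitine, with 18 carbons and 4 double bonds, was the single member lower in castrated males, at 0.121 in castrated males, 0.0965 in sham females and 0.192 in sham males.

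Among short and medium chains of this kidney, butyrylcarnitine averaged 0.0154 in castrated males, 0.0214 in sham females and 0.00585 in sham males, a low signal in all arms. Its branched isomer isobutyryl-L-carnitine averaged 8.98 in castrated males, 6.55 in sham females and 6.37 in sham males. ACar(6:1) averaged 0.0811 in castrated males, 0.0833 in sham females and 0.0403 in sham males. ACar(11:1) averaged 0.139 in castrated males, 0.0805 in sham females and 0.0782 in sham males. Butyrylcarnitine, ACar(6:1) and ACar(11:1) were among the weakest signals of the table. Stearoylcarnitine averaged 4.56 in castrated males, 3.53 in sham females and 2.74 in sham males. 3-Methylglutarylcarnitine averaged 0.0781 in castrated males, 0.610 in sham females and 0.0394 in sham males. This ester of a branched diacid, raised in people who lack the last enzyme of leucine breakdown and ketone formation, had the widest sex ratio of all members, 3.95. The precursor of carnitine is listed here as 4-(trimethylammonio)butanoate, a name that the rule does not take. It averaged 0.644 in castrated males, 0.564 in sham females and 0.287 in sham males. Free carnitine averaged 0.334 in castrated males, 0.293 in sham females and 0.274 in sham males. Under 4-trimethylammoniobutanoic acid the precursor averaged 0.0343 in castrated males, 0.0369 in sham females and 0.0361 in sham males in kidney at 18 months. In liver at 12 weeks that entry averaged 0.0201 in castrated males, 0.0209 in sham females and 0.0199 in sham males.

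In kidney at 18 months 13 of 56 members were higher and 3 lower in castrated males, beside 14.7% and 11.8% of 985 compounds, and the median castration ratio was 0.21 against 0.03. Of the medium chains 7 of 18 were higher (median 0.39), against 6 of 28 long chains (median 0.12) and none of 7 short chains. Of those 7 medium chains 6 were among the weakest signals of the table, and without such signals 1 medium and 4 long chains were higher. ACar(8:1) averaged 0.0174 in castrated males, 0.00961 in sham females and 0.00561 in sham males, a castration ratio of 1.63. ACar(10:2) averaged 0.00612 in castrated males, 0.00633 in sham females and 0.00247 in sham males. ACar(10:1) averaged 0.0140 in castrated males, 0.0137 in sham females and 0.00721 in sham males. ACar(11:1) averaged 0.0114 in castrated males, 0.0117 in sham females and 0.00659 in sham males. In all 4 the sham females passed the limit over sham males too. ACar(6:0) averaged 0.0932 in castrated males, 0.0880 in sham females and 0.0516 in sham males. L-Hexanoylcarnitine, of the same composition, averaged 0.0131 in castrated males, 0.00816 in sham females and 0.00669 in sham males. ACar(9:0) averaged 0.00907 in castrated males, 0.0103 in sham females and 0.00563 in sham males.

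Long chains that were higher in castrated male kidney at 18 months were polyunsaturated, but for ACar(18:1). ACar(22:4) averaged 0.215 in castrated males, 0.10 in sham females and 0.0720 in sham males. ACar(16:4) averaged 0.0177 in castrated males, 0.0189 in sham females and 0.00613 in sham males. ACar(20:2) averaged 0.138 in castrated males, 0.0491 in sham females and 0.0742 in sham males. Sham females matched the castrated males for ACar(16:4) and lay nearer the sham males for the other 2. ACar(14:3) averaged 0.0134 in castrated males, 0.00283 in sham females and 0.00861 in sham males. Linoelaidyl carnitine averaged 1.30 in castrated males, 0.876 in sham females and 0.845 in sham males. ACar(18:1) averaged 0.254 in castrated males, 0.129 in sham females and 0.157 in sham males. Linoelaidyl carnitine was the member just inside the limit, and ACar(7:0), at 0.0108 in castrated males, 0.00985 in sham females and 0.00720 in sham males, the one just outside. The 3 lower members were of mixed kinds. ACar(20:4) averaged 0.00125 in castrated males, 0.00233 in sham females and 0.00381 in sham males. 3-Hydroxyisovalerylcarnitine, a leucine product, averaged 0.0119 in castrated males, 0.00417 in sham females and 0.0331 in sham males. ACar(18:0) averaged 0.0840 in castrated males, 0.0474 in sham females and 0.144 in sham males. Of these 56 members 26 were among the weakest signals of the table, and without them 5 were higher.

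In liver at 12 weeks castrated males had higher means than sham males for most chains up to 18 carbons. Of 38 members 17 were higher and 2 lower, beside 11.4% and 15.3% of 737 compounds, with a median castration ratio of 0.52 against -0.06. Of 20 long chains 10 were higher and 16 lay above 0, with a median of 0.57. The 14 of 13 to 18 carbons all lay above 0 (median 0.74), while 4 of the 6 longer ones lay below it, a boundary drawn after the values were seen. Of the medium chains 6 of 10 were higher, with a median of 0.93. ACar(18:1), the mass of oleoylcarnitine, averaged 1.10 in castrated males, 0.604 in sham females and 0.564 in sham males, a castration ratio of 0.97. The hexadecanedioic acid ester averaged 0.0165 in castrated males, 0.00687 in sham females and 0.00424 in sham males, a ratio of 1.96 and the widest of this table. ACar(16:2) averaged 0.0133 in castrated males, 0.00518 in sham females and 0.00567 in sham males. ACar(14:2) averaged 0.00447 in castrated males, 0.00152 in sham females and 0.00215 in sham males. For ACar(18:1), ACar(16:2) and ACar(14:2) the sham females were close to or under the sham males.

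ACar(13:0) averaged 0.00259 in castrated males, 0.00249 in sham females and 0.000934 in sham males. ACar(18:3) averaged 0.00791 in castrated males, 0.0124 in sham females and 0.00423 in sham males. ACar(22:6), the mass of the docosahexaenoic acid ester, averaged 0.0629 in castrated males, 0.0801 in sham females and 0.0338 in sham males. In these 3 sham females were also past the limit. ACar(18:2) averaged 0.0466 in castrated males, 0.0405 in sham females and 0.0282 in sham males. ACar(14:1) averaged 0.00251 in castrated males, 0.00296 in sham females and 0.00161 in sham males. The named isomer cis-5-tetradecenoylcarnitine averaged 0.0136 in castrated males, 0.00476 in sham females and 0.00805 in sham males, higher in castrated males as ACar(14:1) was, but lower in sham females where ACar(14:1) was higher.

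Among medium and short chains of this liver, ACar(7:0) averaged 0.0237 in castrated males, 0.0262 in sham females and 0.00873 in sham males. 2,6-Dimethylheptanoyl carnitine averaged 0.0118 in castrated males, 0.0152 in sham females and 0.00452 in sham males. ACar(6:0) averaged 0.0869 in castrated males, 0.0938 in sham females and 0.0392 in sham males. Sham females had the highest mean of each. Decanoylcarnitine averaged 0.0166 in castrated males, 0.0126 in sham females and 0.00751 in sham males. Dodecanoylcarnitine averaged 0.0119 in castrated males, 0.00638 in sham females and 0.00609 in sham males. ACar(12:1) averaged 0.0103 in castrated males, 0.00549 in sham females and 0.00554 in sham males. Here castrated males had the highest mean. Propionylcarnitine, which comes from odd chains and from isoleucine, valine and methionine, averaged 0.805 in castrated males, 0.610 in sham females and 0.452 in sham males. 3-Methylglutarylcarnitine averaged 0.0456 in castrated males, 0.0284 in sham females and 0.148 in sham males. ACar(6:1) averaged 0.000735 in castrated males, 0.000667 in sham females and 0.00175 in sham males. These 2 were lower in castrated males and in sham females. Of these 38 members 14 were among the weakest signals of the table, and without them 11 were higher and 1 lower.

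In liver at 18 months no member was higher in castrated males and 7 of 24 were lower, beside 15.9% and 11.4% of 954 compounds. The count without the weakest signals was 3 lower, all short, since the 3 lower medium chains were each among them. All 7 were short or medium: 4 of 6 short chains (median castration ratio -0.82), 3 of 7 medium chains (median -0.50) and none of 10 long chains (median -0.11). Acetylcarnitine averaged 0.665 in castrated males, 0.827 in sham females and 1.26 in sham males. Butyrylcarnitine averaged 0.207 in castrated males, 0.469 in sham females and 0.402 in sham males. 2-Methylbutyroylcarnitine, an isoleucine product, averaged 0.167 in castrated males, 0.487 in sham females and 0.319 in sham males. Their castration ratios were -0.93, -0.95 and -0.93. L-Octanoylcarnitine averaged 0.0161 in castrated males, 0.0372 in sham females and 0.0288 in sham males. 3-Hydroxyisovalerylcarnitine averaged 0.0228 in castrated males, 0.0349 in sham females and 0.0371 in sham males. ACar(10:0) averaged 0.00922 in castrated males, 0.0136 in sham females and 0.0139 in sham males. Sham females lay above the sham males for butyrylcarnitine, 2-methylbutyroylcarnitine and L-octanoylcarnitine, and under them for the other 4. 3-Methylglutarylcarnitine averaged 0.00694 in castrated males, 0.0104 in sham females and 0.0324 in sham males, a castration ratio of -2.22 and the widest of this table. Free carnitine averaged 13.8 in castrated males, 15.1 in sham females and 15.6 in sham males, and relative to it the median ratio was -0.64 for short, -0.32 for medium and 0.07 for long chains. Relative to acetylcarnitine, itself among the lower members, the medians were 0.22, 0.43 and 0.82.

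The sex comparison in serum at 12 weeks had 2 members higher and 13 of 34 lower in sham females, beside 22.7% and 16.5% of all compounds, with a median sex ratio of -0.44 against 0.07. Medium chains lay lowest, with 7 of 10 past the limit and a median of -0.81, while free carnitine averaged 0.000237 in castrated males, 0.000237 in sham females and 0.000238 in sham males. ACar(6:0) averaged 1.32e-05 in castrated males, 4.91e-06 in sham females and 1.19e-05 in sham males. ACar(8:0) averaged 5.39e-06 in castrated males, 2.21e-06 in sham females and 4.70e-06 in sham males. ACar(10:0) averaged 6.37e-06 in castrated males, 2.85e-06 in sham females and 5.17e-06 in sham males. Castrated males had the highest mean of all 3. ACar(8:2) averaged 4.95e-06 in castrated males, 3.01e-06 in sham females and 6.95e-06 in sham males. ACar(12:1) averaged 1.39e-06 in castrated males, 8.05e-07 in sham females and 1.37e-06 in sham males. Both entries of 12 saturated carbons were lower in females. ACar(12:0) averaged 1.02e-06 in castrated males, 6.56e-07 in sham females and 1.23e-06 in sham males. Dodecanoylcarnitine averaged 8.19e-06 in castrated males, 4.68e-06 in sham females and 7.73e-06 in sham males.

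Of 18 long chains in serum at 12 weeks 1 was higher in sham females, ACar(20:4), with a sex ratio of 1.08. The 5 long chains that were lower in female serum were all unsaturated. ACar(16:1) averaged 1.53e-05 in castrated males, 8.59e-06 in sham females and 1.78e-05 in sham males. ACar(14:1) averaged 2.09e-05 in castrated males, 1.21e-05 in sham females and 2.38e-05 in sham males. ACar(14:2) averaged 6.00e-06 in castrated males, 3.28e-06 in sham females and 5.66e-06 in sham males. ACar(16:2) averaged 5.05e-06 in castrated males, 2.61e-06 in sham females and 4.37e-06 in sham males. ACar(16:5) averaged 2.22e-06 in castrated males, 1.28e-06 in sham females and 2.12e-06 in sham males. Castrated males lay near sham males in all 5. The saturated ACar(16:0), the mass of palmitoylcarnitine, averaged 7.82e-05 in castrated males, 8.00e-05 in sham females and 8.04e-05 in sham males and was within the limit. Among short chains ACar(4:0) was lower in females, averaging 5.84e-05 in castrated males, 5.34e-05 in sham females and 8.74e-05 in sham males. ACar(5:0) was higher in females, averaging 1.52e-05 in castrated males, 2.99e-05 in sham females and 1.70e-05 in sham males.

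In kidney at 12 weeks sham females had 16 members higher and 13 lower, beside 16.5% and 13.3% of all compounds, and polyunsaturated and saturated chains lay on opposite sides. Without the weakest signals 12 were higher and 11 lower. Of 23 chains with 2 or more double bonds 12 were higher (median sex ratio 0.61), and of 6 saturated medium chains 4 were lower (median -0.92). Decanoylcarnitine averaged 1.53 in castrated males, 0.651 in sham females and 1.98 in sham males. ACar(8:0) averaged 0.905 in castrated males, 0.444 in sham females and 1.22 in sham males. Propionylcarnitine averaged 10.9 in castrated males, 3.996 in sham females and 10.7 in sham males. Their sex ratios were -1.60, -1.46 and -1.42. ACar(6:0) averaged 1.96 in castrated males, 0.991 in sham females and 1.86 in sham males. ACar(9:1) averaged 0.0880 in castrated males, 0.0472 in sham females and 0.108 in sham males. ACar(10:1) averaged 0.225 in castrated males, 0.197 in sham females and 0.328 in sham males. The castrated males were closer to the sham males for all but ACar(10:1). ACar(12:0) averaged 2.503 in castrated males, 1.28 in sham females and 2.46 in sham males. ACar(14:0) averaged 12.3 in castrated males, 7.55 in sham females and 12.9 in sham males. ACar(15:0) averaged 0.271 in castrated males, 0.131 in sham females and 0.281 in sham males. These 3 saturated chains were within the limit in castrated males. ACar(14:2) averaged 0.195 in castrated males, 0.145 in sham females and 0.218 in sham males. ACar(15:1) averaged 0.121 in castrated males, 0.0656 in sham females and 0.10 in sham males. ACar(16:3) averaged 0.500 in castrated males, 0.257 in sham females and 0.432 in sham males. Acetylcarnitine was higher, at 25.2 in castrated males, 29.2 in sham females and 16.8 in sham males, and lay just outside the limit in castrated males. ACar(12:2) averaged 0.0207 in castrated males, 0.0468 in sham females and 0.0166 in sham males. ACar(22:7) averaged 0.797 in castrated males, 0.956 in sham females and 0.541 in sham males, both higher in females.

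In kidney at 18 months 7 members were higher and 16 of 56 lower in sham females, beside 12.5% and 24.9% of all compounds, so the share lower was close to that of the whole table. Without the weakest signals 1 was higher and 9 lower. The long chains had 11 of 28 lower and a median sex ratio of -0.48, against -0.09 over all compounds. L-Palmitoylcarnitine averaged 4.98 in castrated males, 1.65 in sham females and 5.27 in sham males, a sex ratio of -1.68. ACar(22:7) averaged 0.0752 in castrated males, 0.0183 in sham females and 0.0936 in sham males. ACar(14:0) averaged 0.00193 in castrated males, 0.000934 in sham females and 0.00153 in sham males. In these 3 castrated males were within the limit of sham males. ACar(16:1) averaged 0.00256 in castrated males, 0.00167 in sham females and 0.00367 in sham males. ACar(16:2) averaged 0.0540 in castrated males, 0.0248 in sham females and 0.0390 in sham males. The entry cis-5-tetradecenoylcarnitine averaged 0.0424 in castrated males, 0.0264 in sham females and 0.0423 in sham males. Sham females had the lowest mean of each. ACar(20:3) averaged 0.0437 in castrated males, 0.0362 in sham females and 0.0556 in sham males. ACar(14:3), ACar(18:0), ACar(20:2) and ACar(20:4), with values above, were lower in females too. Among medium chains ACar(12:2) averaged 0.00331 in castrated males, 0.000839 in sham females and 0.00270 in sham males. ACar(12:1) averaged 0.0275 in castrated males, 0.0145 in sham females and 0.0270 in sham males. Dodecanoylcarnitine averaged 0.0700 in castrated males, 0.0421 in sham females and 0.0740 in sham males. 3-Methylglutarylcarnitine averaged 0.00222 in castrated males, 0.000709 in sham females and 0.00278 in sham males, lower in females here and far higher in females at 12 weeks. 3-Hydroxyisovalerylcarnitine had the widest sex ratio of this table, -2.99.

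**Figure D3:**
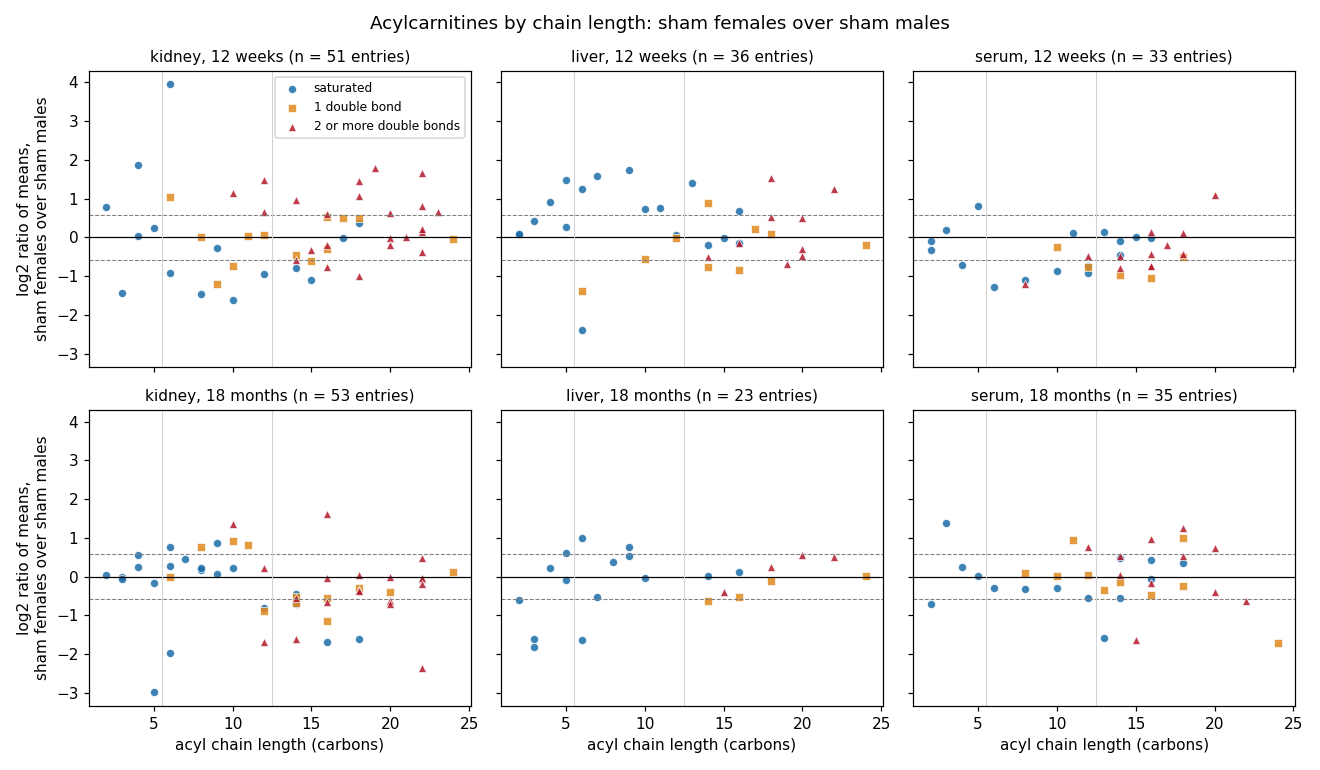
Log2 ratio of the sham female over the sham male mean (y axis) against acyl chain length in carbons (x axis) for each entry, with panels, colours, dashed and vertical lines as in the plot for castrated males. In kidney at 18 months and serum at 12 weeks the chains of 13 or more carbons lie mostly below 0 (median -0.48 for 28 long chains in kidney and -0.43 for 18 in serum).

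In liver at 12 weeks sham females had 13 members higher and 5 of 38 lower, beside 10.7% and 16.4% of all compounds. Over all 38 the median sex ratio lay between those of ACar(18:1), 0.097, and ACar(17:1), 0.21. Leaving out the weakest signals left 9 higher and 3 lower, and raised the median to 0.36. The higher members were mostly saturated and short or medium, with a median sex ratio of 0.56 over 18 saturated chains. 2-Methylbutyroylcarnitine averaged 0.184 in castrated males, 0.369 in sham females and 0.132 in sham males. Isobutyryl-L-carnitine, a valine product, averaged 0.493 in castrated males, 0.641 in sham females and 0.343 in sham males. ACar(11:0) averaged 0.00223 in castrated males, 0.00253 in sham females and 0.00149 in sham males. Sham females had the highest mean of each. The entry 3-dehydroxycarnitine averaged 0.114 in castrated males, 0.135 in sham females and 0.0878 in sham males and was the member just inside the limit. ACar(16:1) averaged 0.141 in castrated males, 0.0689 in sham females and 0.124 in sham males. ACar(19:2) averaged 0.00513 in castrated males, 0.00336 in sham females and 0.00539 in sham males. These 2 were lower in females, besides cis-5-tetradecenoylcarnitine, ACar(6:1) and 3-methylglutarylcarnitine. In liver at 18 months 3 members were higher and 5 of 24 lower, beside 16.8% and 15.3%. Both entries of propionylcarnitine were lower in females. Propionylcarnitine averaged 0.208 in castrated males, 0.0654 in sham females and 0.228 in sham males. O-propanoyl-carnitine averaged 0.316 in castrated males, 0.101 in sham females and 0.307 in sham males. ACar(6:0) averaged 0.0253 in castrated males, 0.0716 in sham females and 0.0357 in sham males. ACar(9:0) averaged 0.00618 in castrated males, 0.00968 in sham females and 0.00565 in sham males, both higher in females, as was 2-methylbutyroylcarnitine, just inside the limit. cis-5-Tetradecenoylcarnitine averaged 0.0431 in castrated males, 0.0305 in sham females and 0.0469 in sham males, lower in females at both ages.

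In serum at 18 months 7 members were higher and 5 of 36 lower in sham females, beside 17.7% and 24.1%. Leaving out the weakest signals left 6 higher and 3 lower. Propionylcarnitine averaged 0.212 in castrated males, 0.415 in sham females and 0.158 in sham males, a sex ratio of 1.39 that is opposite to that of liver at the same age. Cervonyl carnitine, the docosahexaenoic acid ester, averaged 1.01 in castrated males, 0.656 in sham females and 1.02 in sham males and was the member just inside the limit. Acetylcarnitine was lower in females as well.

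Castrated males set directly against sham females, without the sham males, were mostly higher in serum and kidney at both ages and in liver at 12 weeks, and mostly lower in liver at 18 months. At 12 weeks 14 of 34 serum members were higher and 1 was lower in castrated males than in sham females, beside 11.7% and 13.3% of all compounds, with a median log2 ratio of 0.42. At 18 months 18 of 36 were higher and 3 lower, beside 22.5% and 10.5%, with a median of 0.60. Without the weakest signals 14 were higher and 1 lower at 18 months. Of 25 compositions found in serum at both ages, 16 were above 0 and 5 below at both, and 7 passed the limit upwards at both: C12:0, C12:1, C14:1, C14:2, C16:1, C16:2 and C18:2. In kidney at 18 months 23 of 56 were higher and 2 lower, beside 23.1% and 7.31%, and 16 of 28 long chains were higher with a median of 0.61. Without the weakest signals 14 were higher and none lower. In kidney at 12 weeks 15 of 52 were higher and 2 lower, beside 10.4% and 8.16%, with a median of 0.23. In liver at 12 weeks 13 of 38 were higher and 3 lower, beside 8.96% and 7.60%, with a median of 0.15. Without the weakest signals 8 were higher and 2 lower there.

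Liver at 18 months ran the other way, with 2 of 24 members higher and 8 lower in castrated males than in sham females, beside 13.5% and 11.9% of all compounds, and a median of -0.28. The 4 lowest log2 ratios were -1.54 for 2-methylbutyroylcarnitine, -1.50 for ACar(6:0), -1.21 for L-octanoylcarnitine and -1.18 for butyrylcarnitine. Both entries of propionylcarnitine were higher there, at 1.67 and 1.65. Leaving out the weakest signals left 2 higher and 4 lower. Of 20 compositions found in liver at both ages 5 were above 0 and 8 below at both, and 2 passed the limit downwards at both and none upwards.

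Ages were compared within a tissue by composition. Of 39 compositions found in kidney at both ages 20 lay above 0 at both, 3 below at both and 16 on opposite sides. The compositions past the limit upwards at both ages were C10:2, C11:1, C14:3, C16:4, C20:2 and C22:4, all unsaturated, as were most of the 39. At 18 months C10:2, C11:1, C14:3 and C16:4 were among the weakest signals of the kidney, and C20:2 and C22:4 were not. Of 20 compositions shared in liver 16 lay on opposite sides, 2 above and 2 below at both ages, and the only one past the limit at both was 3-methylglutarylcarnitine, lower at each. C4:0, counted as opposite, was isobutyryl-L-carnitine at 12 weeks and butyrylcarnitine at 18 months, which are different compounds. Of 25 in serum 10 were above at both, 5 below at both and 10 opposite. The tables of the 2 ages were made separately, and the difference between ages was not tested.

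**Figure D4:**
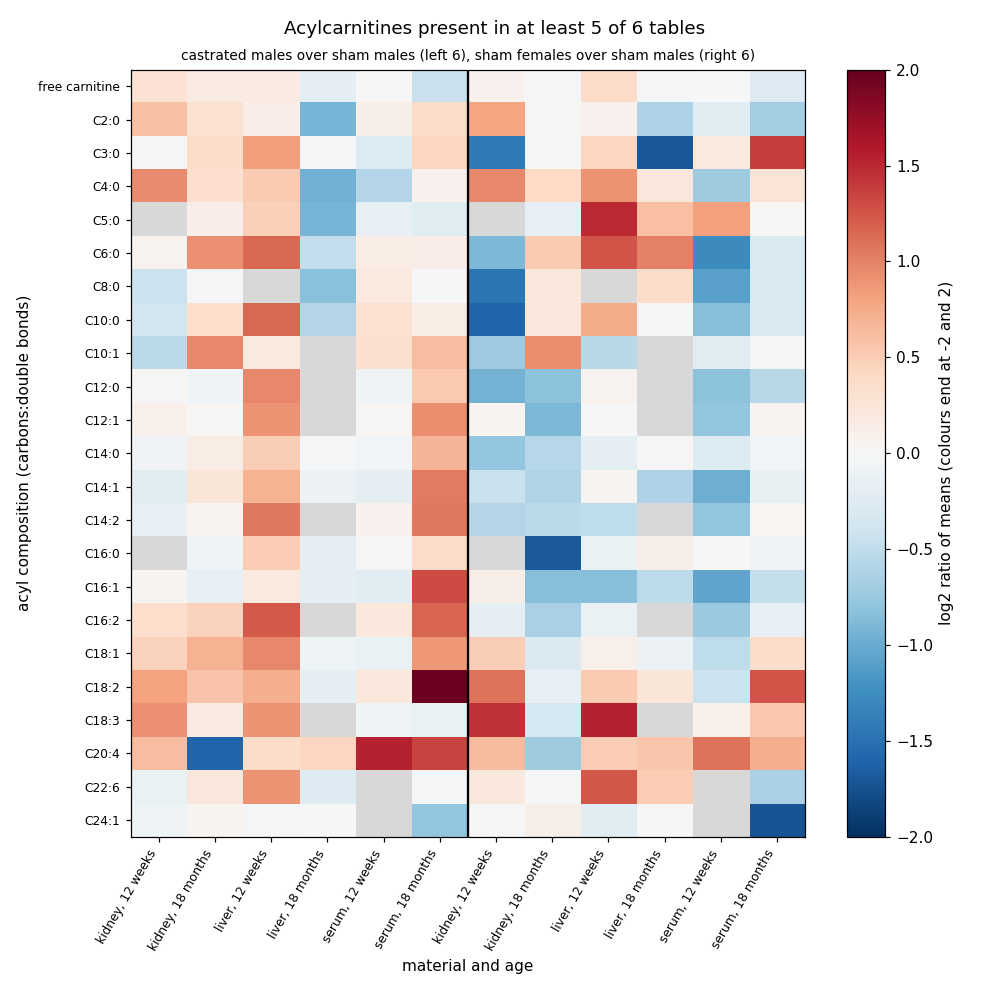
Log2 ratio of means for free carnitine and the acyl compositions found in at least 5 of the 6 tables, ordered downwards by chain length and double bonds; the left 6 columns are castrated males over sham males and the right 6 sham females over sham males, grey cells are absent from a table, and colours end at -2 and 2. The liver columns for castration change from red at 12 weeks to blue at 18 months for C2:0, C5:0, C6:0 and C10:0. The C4:0 row does so too, but in liver it is isobutyryl-L-carnitine at 12 weeks and butyrylcarnitine at 18 months. C18:2 in serum at 18 months reaches 1.96.

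The 5 reference compounds varied by table. Free carnitine differed between arms by less than 1.5-fold in every table, with castration ratios of 0.28 in kidney, 0.17 in liver and -0.01 in serum at 12 weeks, and 0.17, -0.17 and -0.44 at 18 months. In kidney at 18 months it averaged 6.26 in castrated males, 5.44 in sham females and 5.57 in sham males. In liver at 12 weeks it averaged 0.00924 in castrated males, 0.0107 in sham females and 0.00822 in sham males. Acetylcarnitine in kidney at 18 months averaged 4.69 in castrated males, 3.87 in sham females and 3.80 in sham males. Its 2 entries in liver at 12 weeks had castration ratios of 0.11 and 0.15. In serum at 12 weeks the entry L-acetylcarnitine averaged 0.000911 in castrated males, 0.000737 in sham females and 0.000925 in sham males. The entry O-acetylcarnitine there averaged 0.000288 in castrated males, 0.000227 in sham females and 0.000242 in sham males. Acetylcarnitine was thus past the limit for castration only in liver at 18 months. Propionylcarnitine in kidney at 18 months averaged 0.893 in castrated males, 0.675 in sham females and 0.680 in sham males. In serum at 12 weeks it averaged 4.32e-05 in castrated males, 5.97e-05 in sham females and 5.22e-05 in sham males. It was past the limit for castration in liver at 12 weeks alone. Palmitoylcarnitine in liver at 12 weeks averaged 0.248 in castrated males, 0.159 in sham females and 0.175 in sham males. In liver at 18 months it averaged 0.210 in castrated males, 0.261 in sham females and 0.241 in sham males. In serum at 18 months it averaged 3.47 in castrated males, 2.53 in sham females and 2.65 in sham males. Its castration ratio was within the limit in each of the 5 tables that list it. ACar(18:1) in serum at 12 weeks averaged 7.18e-05 in castrated males, 5.53e-05 in sham females and 7.90e-05 in sham males. In liver at 18 months it averaged 0.310 in castrated males, 0.306 in sham females and 0.330 in sham males. In serum at 18 months it averaged 3.26 in castrated males, 1.90 in sham females and 2.26 in sham males, just outside the limit for castration. In kidney at 12 weeks its place was taken by elaidic carnitine, at 0.399 in castrated males, 0.408 in sham females and 0.290 in sham males.

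Several compositions are listed under more than one name in a table, which may be isomers or repeated annotations of one compound. Over 21 such pairs the castration ratios differed by a median of 0.35 in log2 units and by at most 0.93, and 14 pairs lay within 1.5-fold. The castration ratios had the same sign in 13 of the 21 pairs and opposite signs in the other 8. The widest gap was in kidney at 18 months, where ACar(8:0) averaged 0.0289 in castrated males, 0.0245 in sham females and 0.0216 in sham males. L-Octanoylcarnitine averaged 0.00740 in castrated males, 0.0123 in sham females and 0.0105 in sham males. For sex the pairs differed by a median of 0.32 and by up to 1.83, between butyrylcarnitine and isobutyryl-L-carnitine in kidney at 12 weeks, which are different compounds. These gaps are the nearest thing to a repeat measurement in the tables. The remaining 103 entries passed the limit in neither comparison, and 75 of all 240 were among those weakest signals of their table.

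Genes of the pathway were read from the RNA of kidney and liver, with the authors' own tests at 18 months. In bulk tissue fewer cells of a type and less RNA per cell cannot be told apart. Log2 changes are from the authors' deposited table, given as castrated or female over sham male, which is the reverse of the sign in that table. In kidney, castrated males had 10 of 45 listed genes that rose and 19 that fell at an adjusted p under 0.05 in the authors' DESeq2 test, beside 9.56% and 13.1% of 17872 genes. The median log2 change over the 45 was -0.14, against 0.04 over all genes, with 15 above 0 and 30 below. The ratio of the authors' group means, with 1 added to each mean, gave another split, with 23 above 0 and 22 below, a median of 0.0091 and 0.08 over all genes. The deposited changes lay lower than those ratios by a median of 0.15, so the sign of a small change depends on the scale. All 29 genes that passed the test had the same sign on both scales. The acyl-CoA dehydrogenases and their electron acceptors had 8 of 13 that fell and 1 that rose.

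Among them, in the authors' deposited table, Ivd, which oxidises isovaleryl-CoA from leucine, averaged 144 in castrated males, 160 in sham females and 190 in sham males and fell with a log2 change of -0.54 (adjusted p = 2.64e-12, DESeq2). Acads, the short-chain enzyme, averaged 123 in castrated males, 117 in sham females and 155 in sham males (log2 -0.48, adjusted p = 2.84e-06). Acadm, the medium-chain enzyme, averaged 401 in castrated males, 698 in sham females and 458 in sham males (log2 -0.34, adjusted p = 3.24e-06), and rose in sham females (log2 0.48). Acad10, Acad11, Acad8, Etfa and Etfdh also fell, and Acadsb, which acts on branched chains, rose (log2 0.26). The long-chain enzymes Acadvl and Acadl did not pass the test, at log2 -0.06 and -0.15. The later steps moved differently, with 4 of 8 that rose (Hadha, Hadhb, Acaa2 and Eci1) and 1 that fell (Hadh).

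Of 6 acyltransferases 1 rose and 3 fell in castrated male kidney, by the authors' deposited table. Cpt1b, the muscle-type gate for long chains, averaged 16.97 in castrated males, 18.9 in sham females and 7.49 in sham males and rose with a log2 change of 1.03 (adjusted p = 8.34e-17, DESeq2). Crot, the peroxisomal octanoyltransferase that makes medium-chain acylcarnitines, averaged 72.1 in castrated males, 85.5 in sham females and 146 in sham males and fell with a log2 change of -1.16 (adjusted p = 1.32e-31). Cpt2 and Crat fell by less, and Cpt1a and Cpt1c did not pass the test. Of 5 transport genes measured, Slc25a20, the carnitine-acylcarnitine exchanger of the inner membrane, rose (log2 0.47) and Slc22a4 fell (log2 -0.52). Slc22a16, the sixth of that list, had no value. Of 4 synthesis genes Shmt1 rose (log2 0.80), Bbox1, whose enzyme makes carnitine from its precursor, rose (averaging 2.41 in castrated males, 1.76 in sham females and 0.623 in sham males; log2 1.58, adjusted p = 9.69e-05), and Tmlhe and Aldh9a1 fell. Bbox1 was low in kidney, as its liver means were 101 in castrated males, 106 in sham females and 105 in sham males. In kidney at 12 weeks it averaged 0.298 in castrated males, 0.268 in sham females and 0.149 in sham males FPKM. In branched-chain amino acid breakdown 1 of 9 rose (Bcat2) and 4 fell (Mmut, Pcca, Pccb and Mccc1).

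Sham female kidney at 18 months had 10 listed genes that rose and 12 that fell, by the authors' DESeq2 test, beside 7.91% and 8.90% of 17625 genes. The median over the 45 was -0.12 by the deposited changes and 0.0027 by the group means. Cpt1b rose (log2 1.21) and Crot fell (log2 -0.90), in the authors' deposited table. In liver castrated males had 1 of 45 that rose and none that fell, beside 1.08% and 1.01% of 16883 genes. At an unadjusted p under 0.05, 5 were higher and 1 lower in the authors' DESeq2 results. The one that rose was Slc22a5, the main carnitine uptake transporter, which averaged 24.2 in castrated males, 18.1 in sham females and 8.68 in sham males (log2 1.22, adjusted p = 0.00259). Sham female liver had 1 that rose, Slc16a9, linked to carnitine efflux in people (log2 1.73), and 3 that fell (Acads, Acadsb and Bckdha), beside 5.87% and 3.91% of 16659 genes. Slc16a9 was low in liver, averaging 0.812 in castrated males, 1.82 in sham females and 0.487 in sham males. The median over the 45 turned in sham female liver too, at -0.09 by the deposited changes and 0.10 by the group means. In castrated male liver it was 0.06 by the deposited changes and 0.20 by the group means. The means of 2 haemoglobin genes at 18 months were highest in castrated males in both tissues. In kidney Hba-a1 averaged 1060 in castrated males, 545 in sham females and 687 in sham males. In liver it averaged 319 in castrated males, 162 in sham females and 188 in sham males. Hbb-bs averaged 1959 in castrated males, 1020 in sham females and 1269 in sham males in kidney. In liver it averaged 504 in castrated males, 322 in sham females and 326 in sham males. The muscle and fat markers Ckm, Acta1, Plin1 and Adipoq averaged under 1 in every group. The part of blood in these results was not tested.

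**Figure D5:**
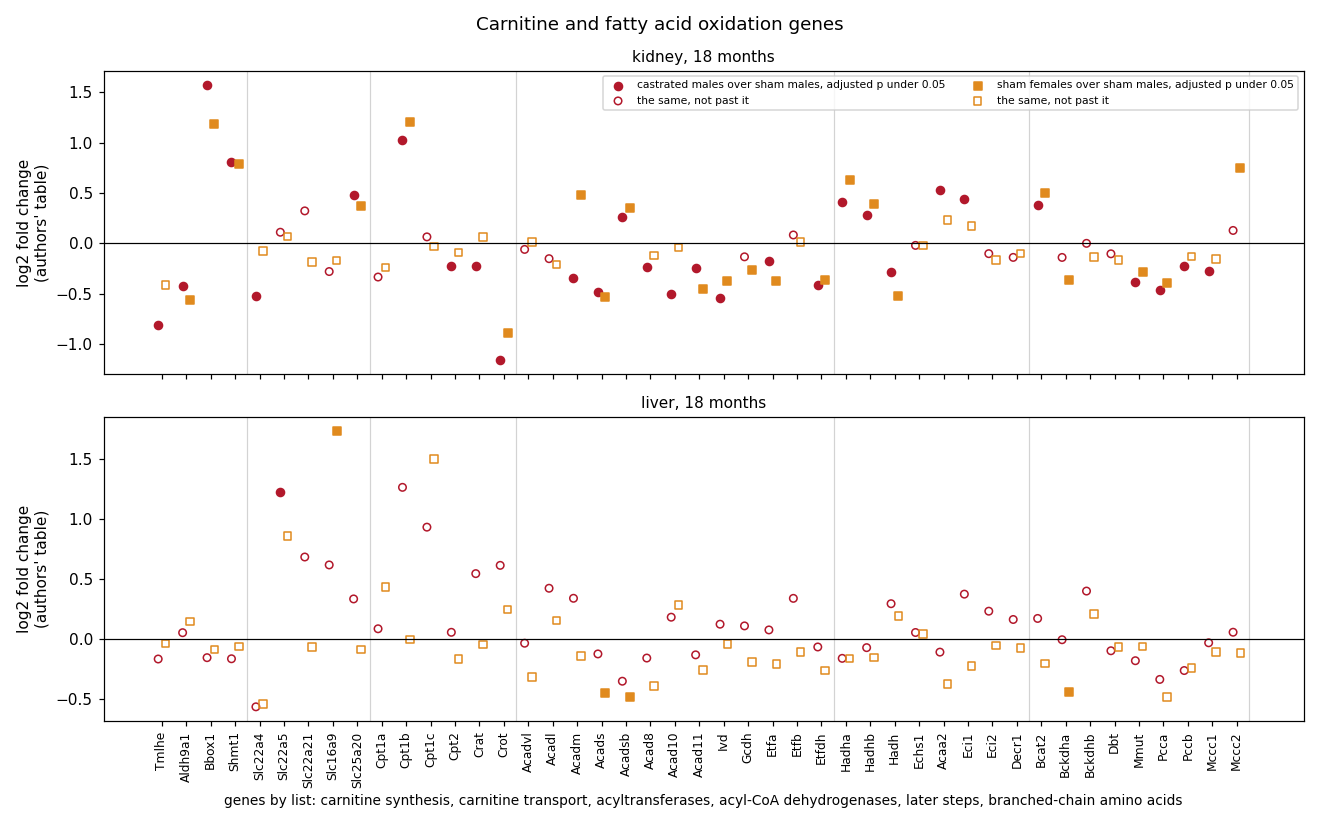
Log2 fold change from the authors' deposited table (y axis) of 45 carnitine and fatty acid oxidation genes (x axis, by list) in kidney (top) and liver (bottom) at 18 months, for castrated males over sham males (circles) and sham females over sham males (squares); filled symbols passed an adjusted p under 0.05. In kidney Bbox1, Shmt1 and Cpt1b lie above 0 and Crot below it in both comparisons, and in liver Slc22a5 is the one filled circle.

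At 12 weeks the deposited gene tables list each gene for 1 of the 3 comparisons, so no count over the lists is given and the means are in FPKM. In kidney, Crot averaged 34.9 in castrated males, 33.3 in sham females and 130 in sham males FPKM (adjusted p = 0.000476 for castrated over sham males in the authors' deposited table). Acads averaged 32.6 in castrated males, 31.0 in sham females and 85.4 in sham males FPKM, Etfdh 21.2 in castrated males, 21.5 in sham females and 52.2 in sham males FPKM and Hadh 130 in castrated males, 107 in sham females and 257 in sham males FPKM, each with an adjusted p of 0.000476 for castration in the authors' deposited table. All 4 were lower in castrated males and in sham females than in sham males. Cpt1a, the liver-type gate for long chains, averaged 48.1 in castrated males, 42.1 in sham females and 81.3 in sham males FPKM and Acadm 135 in castrated males, 243 in sham females and 322 in sham males FPKM, with the same adjusted p. Hadha, Hadhb, Acaa2 and Eci1, which rose in castrated male kidney at 18 months, had lower means there than sham males at 12 weeks. Hadhb averaged 43.8 in castrated males, 40.9 in sham females and 97.5 in sham males FPKM. In that order Acaa2 averaged 79.5, 69.3 and 103, Eci1 83.9, 70.0 and 93.8 and Hadha 72.7, 80.7 and 76.0 FPKM. None of these was listed for castrated over sham males. In liver, Slc22a5 averaged 11.3 in castrated males, 10.03 in sham females and 7.02 in sham males FPKM (adjusted p = 0.0124 for castration) and Slc25a20 52.3 in castrated males, 51.9 in sham females and 77.9 in sham males FPKM (adjusted p = 0.000856), in the authors' deposited table. Slc25a20 was lower in castrated males there. Liver Acads was lower too, at 36.2 in castrated males, 35.0 in sham females and 58.5 in sham males FPKM. Liver Etfdh averaged 31.2, 31.5 and 68.0 FPKM in the same order, and liver Crot 98.5, 106 and 172 FPKM. Hadh was not lower in liver, at 139, 128 and 126 FPKM. For Acads and Etfdh the adjusted p for castration was 0.000856 in the authors' deposited table. Slc22a5 was higher in castrated male liver, and Crot lower in castrated male kidney, at both ages. Slc22a4 in kidney averaged 26.7 in castrated males, 22.2 in sham females and 16.3 in sham males FPKM at 12 weeks (adjusted p = 0.00163 for castration in the authors' deposited table), higher in castrated males there and lower at 18 months.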

How the data were processed

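An untargeted mass spectrometry survey gave metabolites of kidney, liver and serum, and RNA of kidney and liver was sequenced from poly(A)-enriched libraries. The deposited metabolite signal is 1 mean per arm; the sources used here give neither its scale, nor its normalization, nor the number of animals. The characters 8 and 6 follow an arm name in 2 deposited column headers (sham females, kidney, and castrated males, liver, both at 18 months), with no stated meaning. Expression at 12 weeks is in FPKM, per the file headers, as the authors' means, and the authors' normalized signal at 18 months has no stated unit. HISAT2, SAMtools, Cufflinks and the mm10 build are named in the submitters' processing notes; no version is stated in the labels. The p-values and adjusted p-values (q-values) are the authors' deposited ones, from DESeq2 at 18 months per the file headers. The deposited log2 fold changes run opposite to the means: of 1806 called genes past 2-fold in the means, 0 had the deposited sign, so the sign was turned.

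From these values log2 ratios of arm means, class medians and counts past 1.5-fold were computed with Python 3.11.15, pandas 2.3.3 and numpy 2.4.6, and plotted with matplotlib 3.10.9; the scripts were tested on simulated data. Rows without a name were left out. Members past 1.5-fold against sham males (137 entries), 5 reference compounds and members next to the limit are named with values, and the other entries are counted. The members and gene lists were chosen with earlier results of these data known. Libraries are the replicates behind the authors' gene tests, and nothing says whether they came from separate animals, so those p-values may measure technical spread. No sequencing depth is known from means, and no interval can be given for a metabolite.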

Additional observations from a re-analysis of the deposited data

How the results depend on the processing

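No paired analysis was possible because 1 mean per arm is given, and for the same reason leaving out a replicate was not possible. A filter on identification score was not run, since the tables used here hold no score. Settings tried were centring each table on its median (shifts from -0.09 to 0.07 on the log2 scale) and a small added constant. Others averaged entries of one composition, isomers included, or left out names without an acyl chain. Each left all 36 counts and medians over members close to the main values (counts within 1.5-fold, medians within 0.1).

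Counts moved with the limit. At 2-fold, members higher and lower for castration were 8 and 0 in kidney, 8 higher in liver, and 1 and 0 in serum at 12 weeks, and 4 higher in kidney, 1 lower in liver and 0 lower in serum at 18 months. For sex they were 9 and 5 in kidney, 7 and 2 in liver and 1 and 4 in serum at 12 weeks, and 2 and 8, 1 and 3, and 2 and 3 at 18 months. At the lower limit, castration gave 26 and 5 in kidney, 4 lower in liver and 6 lower in serum at 12 weeks, and 24 and 9 in kidney, 1 higher in liver and 5 lower in serum at 18 months. Sex gave 8 lower in liver and 20 lower in serum at 12 weeks, and 7 and 8 in liver and 12 and 10 in serum at 18 months.

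Without the weakest signals of each table, castration gave 11 higher and 1 lower in liver and 1 lower in serum at 12 weeks, and 5 higher in kidney, 3 lower in liver and 1 lower in serum at 18 months. Sex then gave a median of 0.36 and 3 lower in liver at 12 weeks, a median of -0.32 with 1 higher and 9 lower in kidney at 18 months, and 3 lower in serum at 18 months. The mean over members in place of the median was 0.16 for sex in kidney at 12 weeks, and at 18 months -0.26 for sex in kidney, -0.34 for castration in liver and -0.13 for sex in liver. Relative to acetylcarnitine in place of free carnitine, the short-chain castration median at 18 months turned to 0.22 in liver and -0.30 in serum, because acetylcarnitine itself differed. At an adjusted p under 0.01 in the authors' DESeq2 results, 12 listed genes fell in castrated male kidney and 0 in sham female liver at 18 months. By the ratio of the authors' group means in place of the deposited log2 changes, chosen after seeing the data, the median over the 45 listed genes turned to 0.0091 for castration and 0.0027 for sex in kidney and to 0.098 for sex in liver, and was 0.197 for castration in liver. The cause of the other moves was not tested.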

Other observations

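The ketone body (R)-3-hydroxybutyric acid, which liver makes from the acetyl groups of fatty acid oxidation, differed by material at 18 months. In liver it averaged 2.27 in castrated males, 1.15 in sham females and 1.41 in sham males, and in kidney 0.0990 in castrated males, 0.153 in sham females and 0.185 in sham males. The kidney mean was lowest in castrated males, while the liver mean, like that of serum, was highest in them. A kidney entry named without the configuration, 3-hydroxybutyric acid, had another order, at 0.238 in castrated males, 0.155 in sham females and 0.283 in sham males. In serum at 12 weeks (R)-3-hydroxybutyric acid averaged 0.000127 in castrated males, 6.83e-05 in sham females and 8.69e-05 in sham males.

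The carnitine precursor 4-trimethylammoniobutanoate is listed under 2 names in liver at 18 months, which lay on opposite sides for castration. Under 4-(trimethylammonio)butanoate it averaged 0.0774 in castrated males, 0.126 in sham females and 0.117 in sham males, and under 4-trimethylammoniobutanoic acid 0.04999 in castrated males, 0.0585 in sham females and 0.0433 in sham males.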
